A study of Homo sapiens with 8 samples.

Results

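The genes described here encode proteins that bind acylated lysines through a YEATS domain, a double PHD finger or a bromodomain of the BET family. They are MLLT1, MLLT3, YEATS2 and YEATS4 (YEATS domain), DPF1, DPF2 and DPF3 (double PHD finger), and BRD2 and BRD3 (BET), and they were chosen by name. All 9 had a row in the table, which holds 14526 genes. RNA from 8 samples labelled as the human liver carcinoma line HepG2 was sequenced, 4 control replicates and 4 replicates kept with sodium benzoate (SB) at 10 mM for 24 h. Both groups were grown in DMEM with serum, the labels name no other agent for either group, and the design text calls the replicates biological without saying which were handled together, so that p-values measure the spread between these samples. SB is the sodium salt of benzoic acid, which liver cells are known to activate to benzoyl-CoA. The comparison asks how transcript levels of the reader genes differed after SB treatment.

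Lysine side chains of histones carry acetyl and other acyl groups, and reader domains bind these marks and bring their complexes to chromatin. Bromodomains are best known as acetyl-lysine readers. YEATS domains and double PHD fingers are known to accept several longer or bulkier acyl groups as well. The proteins sit in complexes with separate tasks, which include transcript elongation, histone acetylation, histone exchange and nucleosome remodelling.

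The values are RPKM, reads scaled to the counted gene length and to the library size, with library sizes scaled by the TMM method. TMM assumes that most genes do not change between libraries, and this assumption was not tested. A change is given as the SB minus the control mean of log2(RPKM + 1), a scale that shrinks changes at low RPKM. It was tested with limma over all 14526 genes with Benjamini-Hochberg adjustment, and a gene is called where its adjusted p was below 0.05. The reads recovered from the table were between 36964791 and 44846247 a library. Control replicate 1 stood apart from the other libraries, since same-group pairs that include it differed by a chi-square of 33.4 to 38.4 per degree of freedom, against 1.52 to 3.8 for the other same-group pairs. The changes of MLLT1, MLLT3, YEATS4, DPF1, DPF2 and BRD3 are given with and without it, and those of most partner genes only with it. Of 19 hepatocyte markers, 18 had no row in the table, ALB and AFP (albumin and alpha-fetoprotein) among them. The table leaves out genes under the authors' expression threshold, and the remaining one stood low. TF, the transferrin gene, had 0.192 ± 0.0188 RPKM in the control and 0.379 ± 0.0748 RPKM in the SB replicates (SD, n = 4). The cells are therefore named here only by their label. RNA from a bulk culture cannot tell fewer cells of a kind from less RNA per cell.

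Of the 9 reader genes, 7 were called, against a background of 65.6% of all genes called in either direction. MLLT1 and BRD3 rose, and MLLT3, YEATS4, DPF2, DPF3 and BRD2 fell. Over all genes 33.0% were called higher and 32.6% lower. The control and SB replicates did not overlap for 8 of the 9 genes, 3 of them higher and 5 lower, where 61.5% of all genes did not overlap, 31.0% higher and 30.5% lower. With only 9 genes and no test of them as a set, these shares are not a result about the readers as a group. The median change was -0.22 on the log2 scale against 0.00 over all genes, and the median absolute change was 0.29 against 0.20. No reader gene changed by more than 0.44 on this scale in either direction. The plot of RPKM by library shows the spread of each gene.

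**Figure D1:**
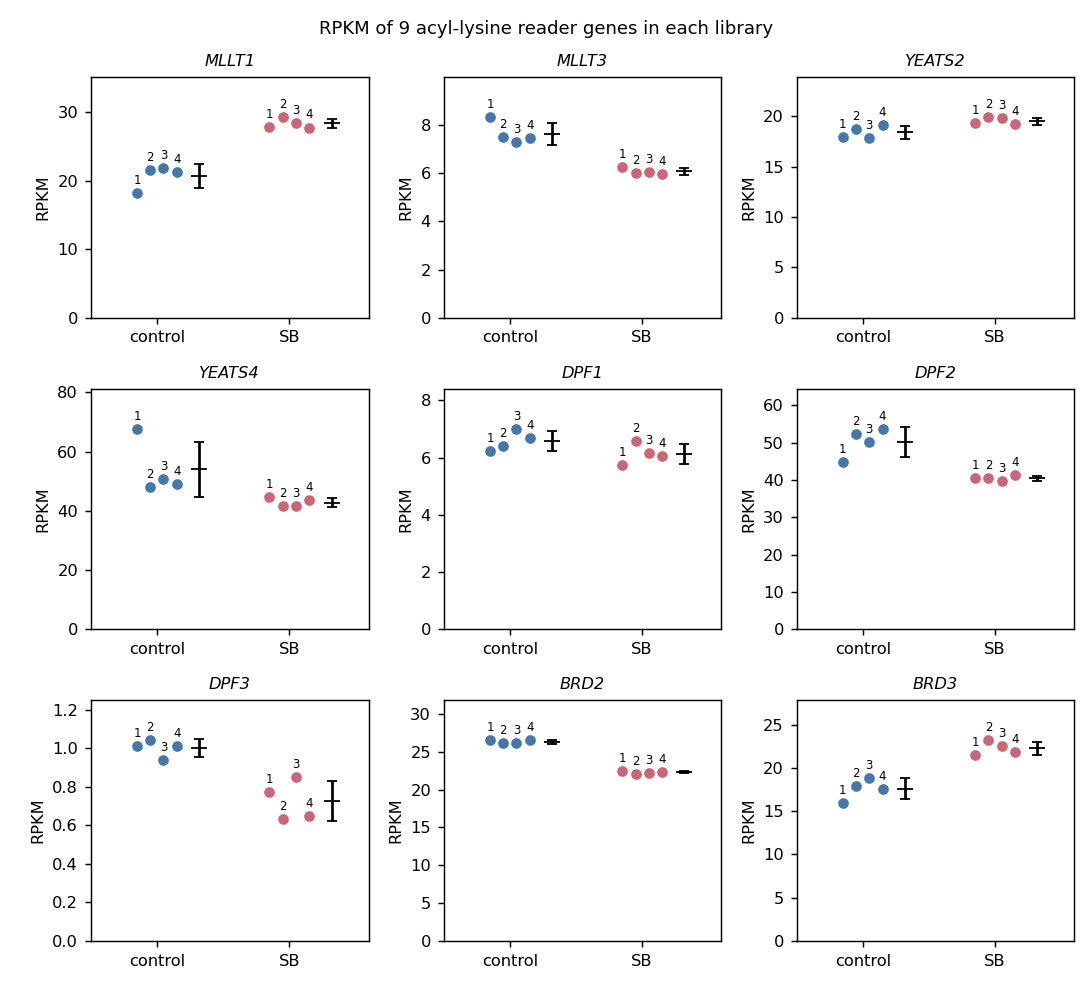
RPKM of the 9 reader genes in each library, with 1 panel a gene. Numbered points are the 4 control and 4 SB replicates, and the bar beside them is the group mean ± SD. MLLT1, BRD3 and, by a small margin, YEATS2 are higher in every SB replicate, while MLLT3, YEATS4, DPF2, DPF3 and BRD2 are lower in every SB replicate, and only DPF1 overlaps between the groups.

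Sequence upstream of the start was taken from RefSeq for a pair of homologues that moved apart, MLLT1 and MLLT3, and for BRD2, to show the sequence at these starts. BRD2 has 4 entries in RefSeq, of which the one at the start of the gene is shown. Each run is the 250 bases before the start on GRCh38.p14, read 5′ to 3′ on the strand of the gene. Capitals mark a CCAAT box (CCAAT, or ATTGG on the other strand) and a GC box (GGGCGG, or CCGCCC on the other strand). The window of MLLT1 is chr19:6279976-6280225 on the minus strand, that of MLLT3 is chr9:20622500-20622749 on the minus strand, and that of BRD2 is chr6:32968344-32968593 on the plus strand.
MLLT1: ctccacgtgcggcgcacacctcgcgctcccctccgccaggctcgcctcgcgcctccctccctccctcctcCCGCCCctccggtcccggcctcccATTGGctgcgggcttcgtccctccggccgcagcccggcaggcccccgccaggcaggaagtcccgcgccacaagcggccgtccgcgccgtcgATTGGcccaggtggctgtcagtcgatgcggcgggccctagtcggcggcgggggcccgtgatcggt
MLLT3: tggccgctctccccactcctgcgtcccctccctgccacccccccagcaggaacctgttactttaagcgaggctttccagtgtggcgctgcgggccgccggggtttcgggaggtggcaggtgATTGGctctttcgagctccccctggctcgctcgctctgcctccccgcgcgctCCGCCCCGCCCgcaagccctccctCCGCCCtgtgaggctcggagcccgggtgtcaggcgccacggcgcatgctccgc
BRD2: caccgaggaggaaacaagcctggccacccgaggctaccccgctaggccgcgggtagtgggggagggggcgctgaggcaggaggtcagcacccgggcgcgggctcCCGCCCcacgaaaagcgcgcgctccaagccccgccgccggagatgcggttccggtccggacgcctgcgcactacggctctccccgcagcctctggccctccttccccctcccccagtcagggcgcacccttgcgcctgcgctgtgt
GC content was 77.2% for MLLT1, 72% for MLLT3 and 74% for BRD2, and its median over 35116 promoter entries was 58%. Over the 13 entries of the 9 genes it ranged from 32.8% for YEATS2 to 86.8% for BRD3, YEATS4 lay below the median at 51.6%, and the further entries of BRD2 had 62.4%, 47.6% and 66.4%. The YEATS2 entry, at chr3:183709989-183710238, and the BRD3 entry, at chr9:134068027-134068276, lie inside the genes as placed by GENCODE. The GC content at the GENCODE start of these genes was thus not measured. The MLLT1 window held 2 CCAAT boxes and 1 GC box, the MLLT3 window 1 and 3, and the BRD2 window 0 and 1. The MLLT1 window also held 1 E-box (CACGTG), left in small letters above. No other entry of the 9 genes had an E-box, and 6.34% of all entries had this motif. Of all entries, 32% held a CCAAT box and 42.6% a GC box. A TATA box (TATAAA, or TTTATA on the other strand) was in none of these 13 entries and in 10.7% of all entries. These matches describe letters in a window and say nothing of binding.

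MLLT1 and MLLT3 encode ENL and AF9, a pair of homologous YEATS proteins of the super elongation complex and of the complexes of DOT1L, the histone H3 lysine 79 methyltransferase. MLLT1 lies on the minus strand at chr19:6210381-6279975 on hg38, and MLLT3 on the minus strand at chr9:20341669-20622499. MLLT1 stood at 18.2, 21.6, 21.9 and 21.3 RPKM in control replicates 1 to 4 and at 27.9, 29.3, 28.5 and 27.8 RPKM in SB replicates 1 to 4. Every SB replicate was above every control replicate, and control replicate 1 was the lowest of all. The mean went from 20.7 ± 1.74 to 28.4 ± 0.699 RPKM (SD, n = 4), a rise of 0.44 on the log2 scale (SE 0.0573, unadjusted 95% interval 0.31 to 0.57, limma adjusted p = 0.000111). Without control replicate 1 the rise was 0.38. By the size of its change MLLT1 ranked 2221 of all genes, within the top 15.3%. The genes whose log2 values followed MLLT1 most closely over the 8 samples were PQLC2, ATXN7L3 and MARCH9, each with a Pearson r of 0.999 (n = 8), which describes samples that share libraries and the group difference.

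MLLT3 moved the other way. Its values were 8.32, 7.48, 7.29 and 7.44 RPKM in the control replicates and 6.27, 6.02, 6.04 and 5.95 RPKM in the SB replicates. The groups did not overlap, and control replicate 1 was the highest. The mean fell from 7.63 ± 0.466 to 6.07 ± 0.139 RPKM (SD, n = 4), with a log2 change of -0.29 (SE 0.0431, 95% interval -0.38 to -0.19, limma adjusted p = 0.000273). Without control replicate 1 it was -0.25.

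YEATS2 is a subunit of the ATAC histone acetyltransferase complex, and YEATS4 encodes GAS41, a subunit of the TIP60 and SRCAP complexes, which acetylate histones and exchange histone H2A.Z. YEATS2 lies on the plus strand at chr3:183697797-183812624 and YEATS4 on the plus strand at chr12:69359710-69390870. YEATS4 had 67.7, 48.2, 50.9 and 49.0 RPKM in control replicates 1 to 4 and 44.6, 41.6, 41.5 and 43.6 RPKM in the SB replicates. Control replicate 1 was far above the other controls, and every SB replicate was below all of them. The mean fell from 54.0 ± 9.21 to 42.8 ± 1.5 RPKM (SD, n = 4), a log2 change of -0.31 (SE 0.0960, limma adjusted p = 0.0161). Without control replicate 1 the control mean was 49.4 ± 1.38 RPKM and the change was -0.20 (SE 0.0341, limma adjusted p = 0.000493). Without the TMM factors the fall of YEATS4 was not called (-0.21, limma adjusted p = 0.0693).

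YEATS2 showed a small difference of the opposite sign. It had 17.9, 18.7, 17.8 and 19.1 RPKM in the control replicates and 19.3, 19.9, 19.8 and 19.2 RPKM in the SB replicates. The groups did not overlap, but the lowest SB replicate was close to the highest control. The log2 change of 0.08 (SE 0.0353, unadjusted 95% interval 0.01 to 0.16) did not pass the threshold, with a limma adjusted p of 0.0572. It passed without control replicate 4, at 0.10 (adjusted p = 0.0400), and without the TMM factors, at 0.18 (adjusted p = 0.0015).

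DPF1, DPF2 and DPF3 encode the BAF45B, BAF45D and BAF45C subunits of BAF nucleosome remodelling complexes. DPF1 and DPF3 lie on the minus strand at chr19:38211006-38229714 and chr14:72609034-72894101, and DPF2 on the plus strand at chr11:65333843-65354262. DPF2, by far the highest of the 3, had 44.7, 52.3, 50.1 and 53.7 RPKM in the control replicates and 40.6, 40.6, 39.6 and 41.2 RPKM in the SB replicates. All SB replicates were below all controls, and control replicate 1 was the lowest control. The mean fell from 50.2 ± 3.96 to 40.5 ± 0.662 RPKM (SD, n = 4), with a log2 change of -0.30 (SE 0.0545, 95% interval -0.42 to -0.18, limma adjusted p = 0.000887). Without control replicate 1 the fall was larger, at -0.35.

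DPF3, the lowest of the 9 genes, also fell. It had 1.01, 1.04, 0.937 and 1.01 RPKM in the control replicates and 0.772, 0.630, 0.848 and 0.650 RPKM in the SB replicates, from a mean of 198 reads in the control and 151 in the SB libraries. The groups did not overlap. The log2 change was -0.22 (SE 0.0463, limma adjusted p = 0.00247) with a pseudocount of 1, -0.42 with a pseudocount of 0.1 and -0.48 with voom on the recovered reads. The size of this change thus depends on the pseudocount, since 1 RPKM is near the level of the gene itself.

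DPF1 was not called. It had 6.22, 6.41, 7.01 and 6.68 RPKM in the control replicates and 5.75, 6.57, 6.15 and 6.05 RPKM in the SB replicates. The groups overlapped, since SB replicate 2 was above control replicates 1 and 2. The log2 difference was -0.09 (SE 0.0470, 95% interval -0.19 to 0.02, limma adjusted p = 0.121). It passed without control replicate 1, at -0.11 (adjusted p = 0.0365), and was 0.0019 without the TMM factors.

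BRD2 and BRD3 encode BET proteins, each with a pair of bromodomains and a tail that binds other factors, and are known to bind acetylated histones. BRD2 lies on the plus strand at chr6:32968594-32981505, in the major histocompatibility complex, and BRD3 on the minus strand at chr9:134030305-134068535. BRD2 had 26.5, 26.1, 26.1 and 26.5 RPKM in the control replicates and 22.4, 22.1, 22.2 and 22.3 RPKM in the SB replicates. The replicates of each group were nearly alike, and the groups were well apart. The mean fell from 26.3 ± 0.256 to 22.3 ± 0.130 RPKM (SD, n = 4), a log2 change of -0.23 (SE 0.0293, 95% interval -0.30 to -0.16, limma adjusted p = 9.48e-05).

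BRD3 rose. It had 15.9, 17.9, 18.8 and 17.6 RPKM in the control replicates and 21.5, 23.2, 22.5 and 21.9 RPKM in the SB replicates. Every SB replicate was above every control. The mean went from 17.6 ± 1.21 to 22.3 ± 0.768 RPKM (SD, n = 4), a log2 change of 0.33 (SE 0.0510, 95% interval 0.21 to 0.44, limma adjusted p = 0.000355), and 0.28 without control replicate 1. In GENCODE 44, BRD3 shares 1283 exonic bases with BRD3OS, a gene of the opposite strand that is listed in the table as LINC00094. LINC00094 also rose, from 4.17 ± 0.363 to 6.43 ± 0.209 RPKM (limma adjusted p = 2.14e-05), and the sources used here do not state whether reads were counted by strand, so its part in the result was not tested. YEATS2 and DPF2 share exonic bases with opposite-strand genes as well, 1164 bases with YEATS2-AS1 for the former and 1239 bases for the latter. BRD2 overlaps exons of 3 GENCODE genes, of which 1 is on its own strand and the others are on the opposite strand.

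Beside the members, PHF10 and KAT6A, double PHD finger proteins of PBAF complexes and of an acetyltransferase complex, changed by 0.25 (limma adjusted p = 0.00832) and -0.16 (limma adjusted p = 0.00149), the latter not called without the TMM factors (adjusted p = 0.0887). KAT6B, the homologue of KAT6A, differed by 0.09 and was not called (limma adjusted p = 0.0625). It was called without control replicate 1, at 0.11 (limma adjusted p = 0.00446), and without the TMM factors, at 0.18 (limma adjusted p = 0.00155).

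**Figure D2:**
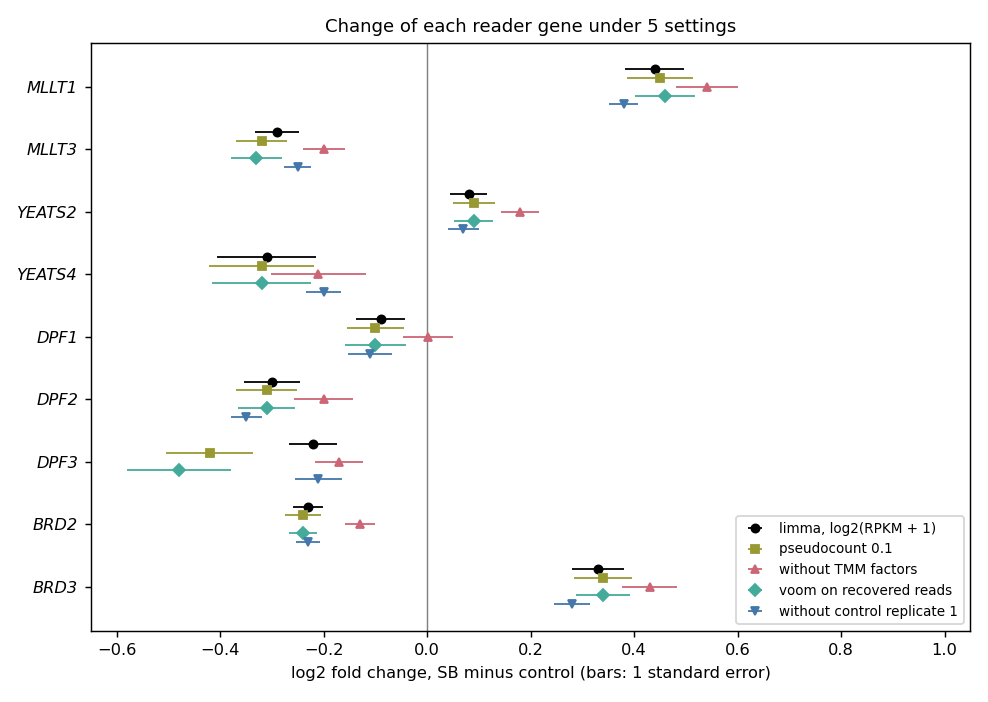
Log2 change (SB minus control) of the 9 reader genes under 5 settings. Points are estimates and bars are 1 standard error. The direction of the 7 called genes is the same under each of the 5 settings, DPF1 lies at 0 without the TMM factors, and DPF3 moves with the pseudocount.

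Ratios between reader genes of the same family do not depend on library scaling. The log2 ratio was compared in each library with an exact two-sided permutation test of 4 against 4, whose smallest possible p is 0.0286, for 5 ratios. That p says only that a ratio did not overlap between the groups. For MLLT1/MLLT3, YEATS2/YEATS4 and BRD2/BRD3 it was fixed beforehand. In each, a gene was higher and the other lower in every SB replicate, so the p adds nothing to the single genes. Of all single genes 61.5% did not overlap, and the share among other gene pairs was not computed. MLLT1/MLLT3 was 2.18, 2.88, 3.01 and 2.86 in the control replicates and 4.45, 4.87, 4.72 and 4.67 in the SB replicates, so that the ratio was higher in every SB replicate. The mean ratio went from 2.73 ± 0.374 to 4.68 ± 0.174 (SD, n = 4), a log2 difference of 0.79 (exact permutation p = 0.0286, 0.0358 adjusted over the 5 ratios), and of 0.68 without control replicate 1.

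BRD2/BRD3 was 1.66, 1.46, 1.38 and 1.51 in the control replicates and 1.04, 0.953, 0.988 and 1.02 in the SB replicates. The groups did not overlap, and the log2 difference was -0.58 (exact permutation p = 0.0286), a factor of 0.667. The factor does not depend on the counted lengths, whereas the ratio itself does. YEATS2/YEATS4 went from 0.348 ± 0.0585 to 0.457 ± 0.0232, a log2 difference of 0.41 (exact permutation p = 0.0286, n = 4). Without control replicate 1 it was 0.28. Without SB replicate 2 or SB replicate 3 its exact permutation p was 0.0857, though the groups still did not overlap. Groups of unequal size can raise this p without any overlap.

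DPF1/DPF2 went from 0.132 ± 0.00928 to 0.151 ± 0.00891, a log2 difference of 0.20 (exact permutation p = 0.0286, n = 4). The exact permutation p was 0.0571 without control replicate 2 or control replicate 4, and 0.0857 without SB replicate 2 or SB replicate 3. The groups of DPF1/DPF2 still did not overlap in these settings, and their unequal sizes can raise this p. DPF3/DPF2 overlapped between the groups, with a log2 difference of -0.17 (exact permutation p = 0.257). Of the 5 ratios, those of MLLT1 to MLLT3 and of BRD2 to BRD3 thus moved the furthest, since in both the numerator and the denominator were called in opposite directions.

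**Figure D3:**
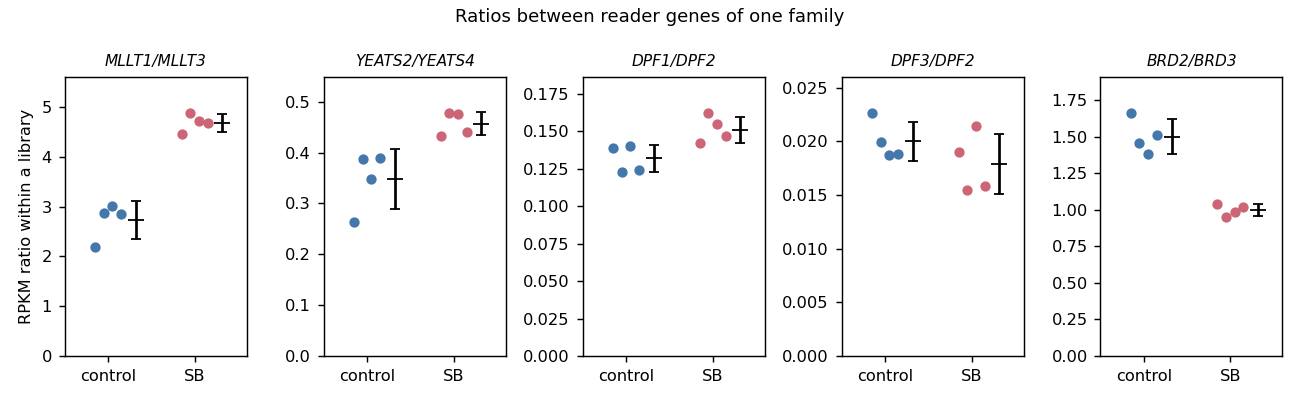
Ratio of RPKM between 2 reader genes of a family in each library, for 5 ratios. Points are the 4 control and 4 SB replicates, and bars are the mean ± SD. MLLT1/MLLT3 is higher and BRD2/BRD3 is lower in every SB replicate, and DPF3/DPF2 overlaps between the groups.

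Levels differed widely among the readers. In the control replicates the order was YEATS4 (54.0 RPKM), DPF2 (50.2 RPKM), BRD2 (26.3 RPKM), MLLT1 (20.7 RPKM), YEATS2 (18.4 RPKM), BRD3 (17.6 RPKM), MLLT3 (7.63 RPKM), DPF1 (6.58 RPKM) and DPF3 (1.0 RPKM). The ranges of YEATS4 and DPF2 overlapped, as did those of MLLT1, YEATS2 and BRD3 with each other. YEATS4 stood at the 91.1 percentile of all genes in the table and DPF3 at the 14.5 percentile.

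This order rests on the counted gene length, which was recovered from the table. For BRD2 it was 33211 bases, while the longest GENCODE transcript has 6084 bases, a ratio of 5.46. Of 108 matched genes of the major histocompatibility complex (MHC) region, on chromosome 6 between 28.5 and 33.5 Mb, 92 had a counted length over 3 times their longest transcript, against 0.637% of the other genes. With the longest transcript as length, a comparison chosen after seeing the data, BRD2 stood at 144 ± 1.40 RPKM in the control and 122 ± 0.709 RPKM in the SB replicates and was the highest of the 9 genes. The sources used here do not state how reads of the MHC genes were counted, and which level of BRD2 is right was not tested. DPF2 then stood at 26.2 ± 2.07 RPKM and DPF3 at 0.438 ± 0.0198 RPKM, since their counted lengths were shorter than the longest transcript. A change between groups is not touched by the length, apart from the pseudocount.

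**Figure D4:**
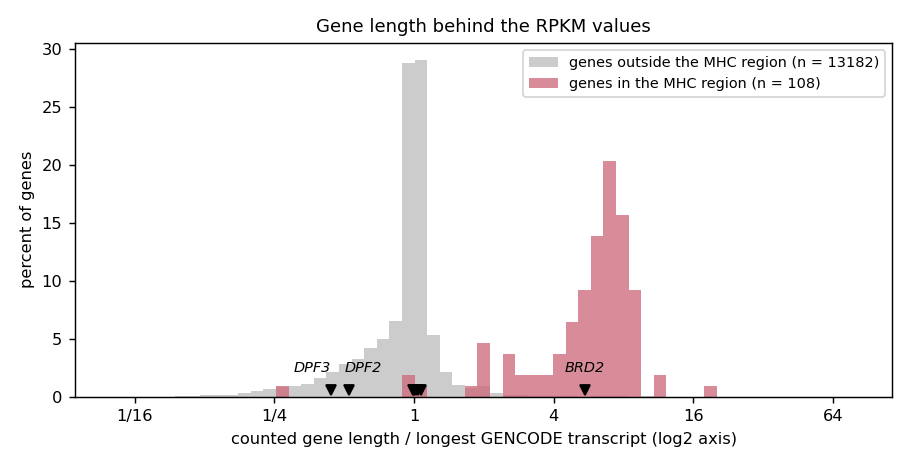
Counted gene length recovered from the table divided by the longest GENCODE transcript (log2 axis), as the percent of genes in each bin, for 108 genes in the MHC region (red) and the genes outside it (grey). Triangles mark the reader genes, of which BRD2 lies among the MHC genes at 5.46, DPF2 and DPF3 lie below 1, and the others lie near 1.

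The complexes of the readers were described from lists of partner genes, in which 10 genes sit in more than 1 list. Their counts stand beside the background of 65.6% of all genes called, 33.0% higher and 32.6% lower. Without the TMM factors 6253 of the 14526 genes were higher and 3355 lower, and each list is given with that setting too. Of 14 genes of the super elongation and DOT1L complexes, partners of MLLT1 and MLLT3, 4 were called higher, 6 lower and 4 were not called (71.4% called, near the 65.6% of all genes). The counts were 6 higher and 5 lower without the TMM factors. DOT1L rose from 13.3 ± 0.764 to 18.6 ± 0.834 RPKM (log2 change 0.45, limma adjusted p = 3.31e-05). MLLT6, a further subunit of DOT1L complexes, had the largest called rise of this list (0.61), and EAF2, an elongation cofactor, the largest called fall (-0.70). AFF4, the scaffold of the super elongation complex, differed by 0.02 (limma adjusted p = 0.639), but was called at 0.12 without the TMM factors (adjusted p = 0.0124). ELL2, an elongation factor of the same complex, differed by -0.10 (limma adjusted p = 0.142).

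P-TEFb is the kinase that releases paused RNA polymerase II and a partner of BET proteins. Of 8 genes of P-TEFb and its inhibitory complex, 4 were higher, 2 lower and 2 not called (75% called, against 65.6% of all genes). With no TMM factors 4 were higher and 1 lower. HEXIM1, its inhibitor, rose from 5.05 ± 0.172 to 7.98 ± 0.175 RPKM (log2 change 0.57, limma adjusted p = 1.22e-06). Its subunits CCNT1 and CDK9 fell by 0.36 and 0.18 (limma adjusted p = 1.01e-05 and 0.00881), though CDK9 was not called without the TMM factors (adjusted p = 0.200).

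For YEATS4, 19 genes of the TIP60 and SRCAP complexes had a row. Of these 12 were lower, 6 higher and 1 was not called, with a median log2 change of -0.16 (94.7% called, against 65.6% of all genes). When the TMM factors were left out, 8 were lower and 6 higher. TRRAP, a large scaffold, rose by 0.39 (limma adjusted p = 0.000613), EP400, a remodelling ATPase, rose by 0.23 (limma adjusted p = 0.00136), and ACTR6, an actin-related subunit, fell by 0.57 (limma adjusted p = 0.000189). KAT5, the acetyltransferase of TIP60, had a log2 change of -0.09 (limma adjusted p = 0.0498), which was 0.01 without the TMM factors. The call of KAT5 did not hold with a pseudocount of 0.1, the mean RPKM filter, the replicate block or voom. Nor did it hold without SB replicate 2, 3 or 4, or without control replicate 3 or 4. The ATAC complex, with YEATS2 as a subunit, had 10 genes with a row, of which 2 were higher and 3 lower (50% called, against 65.6% of all genes), or 4 and 2 without the TMM factors. KAT2B, an acetyltransferase, rose by 0.30 and POLE3, a histone-fold subunit, fell by 0.69 (limma adjusted p = 0.00148 and 6.65e-07).

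BAF complexes, the site of the DPF proteins, had 18 genes with a row, of which 5 were higher, 8 lower and 5 not called (72.2% called, near the 65.6% of all genes). ARID1A and ARID1B, alternative DNA-binding subunits, rose by 0.30 and 0.40 (limma adjusted p = 0.000902 and 1.66e-05), and ACTL6A, an actin-related subunit, fell by 0.38 (limma adjusted p = 7.67e-05). SMARCA4, the ATPase, differed by 0.03 and was not called (limma adjusted p = 0.557), but was called at 0.13 without the TMM factors (adjusted p = 0.0178). Without the TMM factors, where more of all genes were higher than lower, 8 BAF genes were higher and 4 lower.

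Of 35 further bromodomain genes with a row, 15 were higher, 4 lower and 16 not called, so that 54.3% were called, against 65.6% of all genes. Without the TMM factors 24 were higher and 3 lower, so that the share called depends on the scaling. BRPF3, a subunit of acetyltransferase complexes, rose from 9.0 ± 0.471 to 17.4 ± 0.353 RPKM (log2 change 0.88, limma adjusted p = 3.77e-07). ZMYND8, a chromatin reader, fell from 9.63 ± 0.247 to 6.56 ± 0.135 RPKM (log2 change -0.49, limma adjusted p = 2.17e-06). The plot of called shares shows these lists beside all genes.

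**Figure D5:**
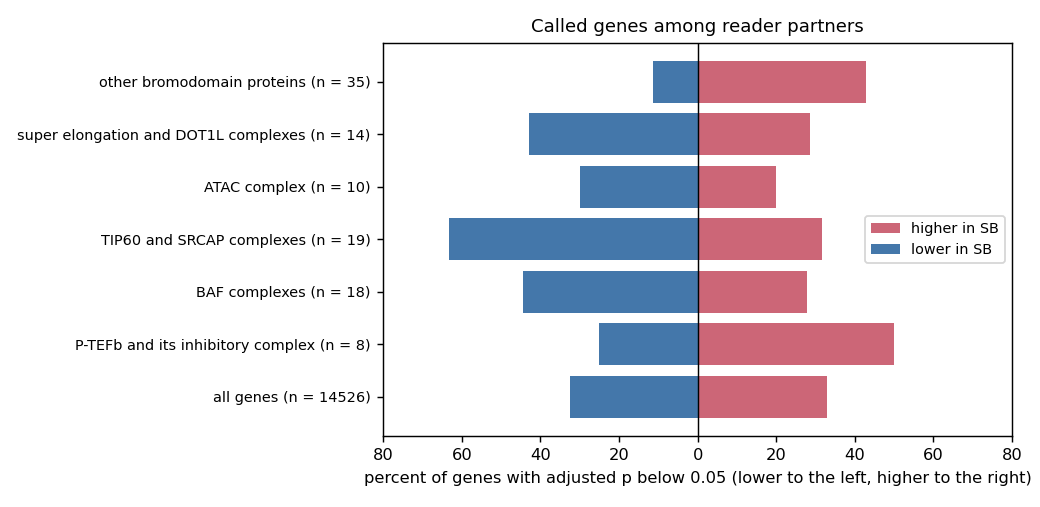
Percent of genes with an adjusted p below 0.05 in each list of partner and related genes and over all genes, lower in SB to the left and higher in SB to the right. TIP60 and SRCAP genes have more lower than higher calls (12 and 6 of 19, or 8 and 6 without the TMM factors), and further bromodomain genes have more higher than lower calls (15 and 4 of 35, or 24 and 3 without them).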

How the data were processed

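Total RNA of 4 control and 4 SB samples was sequenced as single reads. The authors mapped reads to hg38 with TopHat2 2.1.0, counted them per gene with featureCounts 1.5.0, dropped genes that did not exceed 1 CPM in 2 or more samples, normalised by TMM in edgeR 3.16.5, and deposited RPKM per gene and library for 14526 genes. The deposited table also holds the authors' own log2 fold changes, mean log2 CPM, p-values and FDR, which were not used. All 8 per-sample columns were used.

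Ratios between RPKM values of a gene gave whole reads for 100% of genes (within 0.02 reads), and a counted length within 0.01 of a whole base for 14504 genes. A factor common to all 8 libraries cannot be seen this way. Implied TMM factors were 0.957 to 0.970 in the control and 1.03 to 1.04 in the SB libraries. Recovered depth was 36964791 to 44846247 reads a library, with 151 to 34627 reads a gene in the group means of the readers, so that counting error is largest for DPF3.

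Groups followed the sample labels. log2(RPKM + 1) was compared with limma 3.58.1 (lmFit and eBayes, R 4.3.3), with Benjamini-Hochberg adjustment over all genes and 95% intervals. Ratios between readers were compared with an exact permutation test. Scripts were tested on simulated data. Alternatives were median-of-ratios scaling, no TMM factors, a pseudocount of 0.1, a mean RPKM of at least 1, voom on the recovered reads, the replicate block, and leaving out each library. Genes were placed with GENCODE 44, and promoters were taken from RefSeq on GRCh38.p14.

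The members and gene lists were chosen with earlier results of these data known. Named genes beyond the members are a fixed set of catalytic, scaffold or inhibitor subunits and homologues, with the largest called rise and fall of each list. LINC00094 was added after its overlap with BRD3 was seen. Some genes were taken out of the lists and are not reported here. ChIP-seq data were not analysed here.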

Additional observations from a re-analysis of the deposited data

Results flagged for a closer look

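A value in a group of 4 replicates was singled out where its gap to the nearest other replicate, divided by the range of the group, was above the 95% critical value of Dixon's test. Of 64 groups of the members and named partners, 7 met this, where chance gives 1 in 20, or 3.2. Among the 18 groups of the members there were 2. In the control group, replicate 1 was set apart for MLLT1 (0.834, the lowest) and YEATS4 (0.841, the highest), and the changes of both without it are given with those genes. The same replicate was set apart for ELL2 (0.926), EP400 (0.833) and MLLT6 (0.952), so that 5 of the 7 values came from it. Without control replicate 1 the log2 change was -0.04 for ELL2, 0.19 for EP400 and 0.55 for MLLT6. In the SB group, replicate 4 was set apart for KAT6B (0.878) and replicate 1 for AFF4 (0.864).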

How the results depend on the processing

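Called directions of the 7 members held under every alternative that gave a value, and the calls held except for YEATS4. DPF3 has no value under the mean RPKM filter. Without the TMM factors the median log2 ratio of all genes was 0.109 in place of 0.0039, and 6253 genes were called higher and 3355 lower in place of 4787 and 4740. Under that setting YEATS2 was 0.18 and passed, YEATS4 was -0.21 and did not pass, and DPF1 (0.0019) and KAT5 (0.01) changed sign, neither of them passing. AFF4 (0.12), KAT6B (0.18) and SMARCA4 (0.13) passed, and KAT6A (-0.07) and CDK9 (-0.08) did not. It also gave 24 further bromodomain genes higher, 4 ATAC genes higher, 8 BAF genes higher and 4 lower, 8 TIP60 and SRCAP genes lower, and 1 P-TEFb gene lower. These values differ from the reported ones by the scaling alone. Leaving out each library in turn gave 0.07 to 0.10 for YEATS2 and -0.12 to -0.06 for DPF1, where YEATS2 passed without control replicate 4 and DPF1 without control replicate 1. It gave 0.28 to 0.47 for the log2 difference of YEATS2/YEATS4 and 0.17 to 0.24 for that of DPF1/DPF2, and AFF4 was -0.0048 without SB replicate 1 and up to 0.03 without the others. Among the 23 named partners, 17 kept their side of the threshold and direction in each alternative.

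The replicate numbers are shared by both groups. Deviations of same-numbered replicates 1 to 4 correlated by 0.38, 0.327, 0.173 and -0.16, with a mean of 0.18 against -0.0541 for the other pairs across the groups. Of 8 samples, 4 correlated best with their own number. These values do not settle whether samples were paired. The main fit left them unpaired, since no source says that same-numbered samples were handled together. With the replicate block no member call changed, with limma adjusted p of 0.000221 for MLLT1 and 0.00619 for YEATS4, and 4885 genes were called higher and 4894 lower. In paired sign-flip tests the ratio differences were 0.79 (MLLT1/MLLT3), 0.41 (YEATS2/YEATS4), 0.20 (DPF1/DPF2) and -0.58 (BRD2/BRD3), each at an exact p of 0.125, the smallest that 4 pairs can give. For all of these but DPF1/DPF2 that p too was fixed by the values of the single genes.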
